A study of Mus musculus with 6 samples.

Results

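The genes described here load peptides onto MHC class I molecules, together with the transcription activator of that pathway. They are the class I light chain B2m, the peptide transporter subunits Tap1 and Tap2, the trimming peptidase Erap1, the loading and editing proteins Tapbp and Tapbpl, the general folding factors Calr, Pdia3 and Canx, and the activator Nlrc5. These 10 genes were picked by name for their role, and all 10 passed the filter on low values, among 18161 tested genes of 55298 gene identifiers. They were compared between 3 samples of mice with experimental autoimmune encephalomyelitis (EAE) and 3 samples of control mice (OVA). EAE mice, of the strain labelled c56Bl/6j, had been immunised with the peptide MOG 35-55 of myelin oligodendrocyte glycoprotein, and OVA mice of the same strain had received ovalbumin. All animals were killed at the peak of disease. Cells were taken from the brain with magnetic beads carrying an antibody against O4, a surface antigen of late precursors and oligodendrocytes, and were not cultured. Each EAE sample was a pool of 2 mice, so that 6 mice stand behind the group. Of the OVA samples, replicates 1 and 3 each held 1 mouse and replicate 2 held 2 mice, 4 in all. The replicate numbers only name samples and pair none of them. Pooling evens out differences between mice, and a p-value here measures the spread between such samples. These are pools in EAE, but single mice and a pool in OVA.

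Class I molecules show fragments of a cell's own proteins to CD8 T cells. The proteasome cuts proteins in the cytosol, the transporter made of Tap1 and Tap2 carries the peptides into the endoplasmic reticulum (ER), and Erap1 shortens them there. Newly made heavy chains fold with the help of Canx and pair with B2m, and tapasin (Tapbp), Calr and Pdia3 then hold the empty molecule beside the transporter until a fitting peptide binds. Interferon gamma raises most genes of the pathway through Irf1 and Nlrc5. Resting oligodendrocytes are known for low class I expression, and oligodendrocytes exposed to interferon gamma display more of it.

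Each value is the authors' regularised logarithm (rlog) of scaled read counts to base 2, and 1 unit is a 2-fold difference. The rlog shrinks differences of weakly expressed genes. Sequencing depth is unknown, as the table has no counts. A gene was called when its adjusted p from limma, a linear model that pools the spread across genes, was under 0.05 (two-sided, Benjamini-Hochberg over all tested genes). The model assumes that a gene has the same spread in both groups. The groups also differed in transcripts of the sex chromosomes. Xist, the transcript that silences an X chromosome, stood at 13.50, 13.55 and 14.16 in EAE replicates 1 to 3 and at 7.39, 7.63 and 7.62 in OVA replicates 1 to 3. The Y-linked Ddx3y stood at 10.18, 10.17 and 9.44 in EAE and at 11.46, 11.38 and 11.29 in OVA. The labels give no sex, and for every difference below disease and the sex of the pooled animals cannot be told apart. OVA replicate 3 stood apart from the other OVA samples in transcripts of monocytes and B cells, and the counts of calls without it are given for the 10 genes and for the marker lists with calls.

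Nlrc5, Tap1 and B2m rose in EAE, by 4.09-fold, 3.53-fold and 2.52-fold. Tapbp, Tapbpl and Tap2 lay 1.91-fold, 1.77-fold and 1.70-fold higher without passing the threshold. Erap1, Calr, Pdia3 and Canx differed by at most 1.22-fold. So 3 of the 10 genes were called higher and 0 lower, where 1.72% of all tested genes were called higher and 0.666% lower. At an unadjusted p under 0.05, 6 of the 10 genes were higher and 0 lower, against 9.17% and 7.15% of all tested genes. In 5 of the 10, Nlrc5, Tap1, B2m, Tapbp and Tap2, every EAE sample lay above every OVA sample, which held for 12.1% of all tested genes. The median difference was 0.79 over the 10 genes and -0.002 over all tested genes, on the log2 scale.

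**Figure D1:**
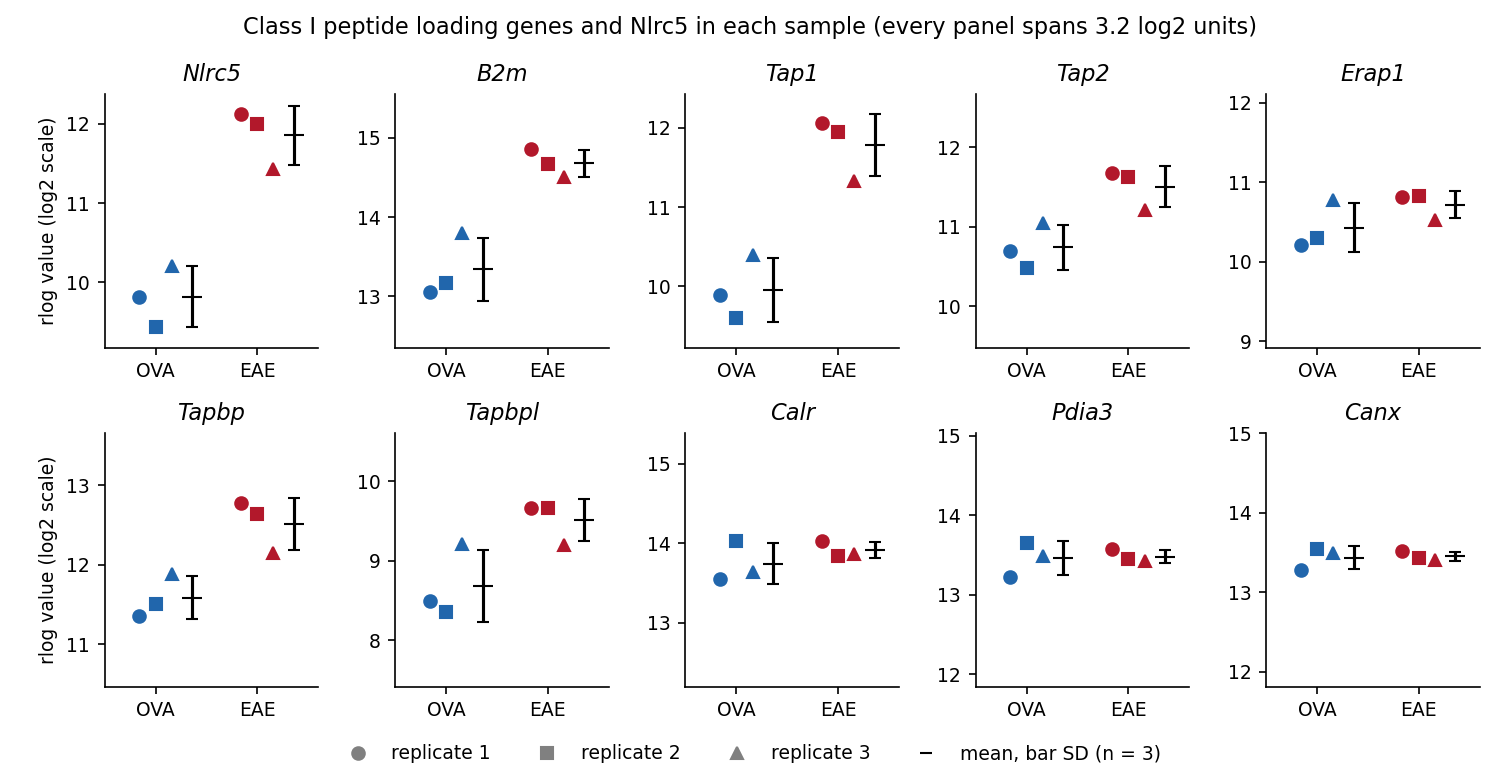
The rlog value (log2 scale) of each of the 10 genes in each sample, with OVA in blue, EAE in red and a separate marker for each replicate. Black bars give the mean and SD of 3 samples, and every panel spans the same range, so that the separation of Nlrc5 (9.43 to 10.20 in OVA, 11.43 to 12.12 in EAE) can be set against that of Canx (13.28 to 13.54 and 13.40 to 13.52).

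Transcripts of other cells differed between the groups at the same time. The counts of markers below can be set against all tested genes, of which 1.72% were called higher and 0.666% lower. At an unadjusted p under 0.05 (limma) the shares were 9.17% and 7.15%. The labels name the cells oligodendrocytes, and the summed level of 13 oligodendrocyte markers (log2 of the summed linear values) ranged from 20.27 to 20.43 in EAE and from 19.90 to 20.34 in OVA. All 8 markers of infiltrating monocytes and macrophages had a positive difference and 2, Arg1 and Cd14, were called, with a summed level from 14.82 to 15.39 in EAE and from 12.80 to 14.56 in OVA. Of 11 myeloid and microglia markers 5 were called higher (Ctss, Cd68, Fcer1g, Tyrobp and Aif1) and 1, P2ry12, lower. At an unadjusted p under 0.05 (limma) 7 of the 11 were higher and 3, P2ry12, Cx3cr1 and Tmem119, lower. The sums of this list ran from 15.73 to 15.83 in EAE and from 15.14 to 15.43 in OVA. Of 11 T and NK cell markers 7 were called higher, with sums from 9.27 to 9.45 in EAE and from 8.55 to 8.89 in OVA. OVA replicate 3 was the highest OVA sample for 7 of the 10 genes, all but Calr, Canx and Pdia3. In this sample the monocyte sum was 14.56, against 12.80 and 12.90 in the other OVA samples. The sum of 5 B and plasma cell markers was 10.29 there, against 8.91 and 8.97. Without OVA replicate 3, 8 of the 8 monocyte, 7 of the 11 myeloid and 10 of the 11 T and NK cell markers were called higher. Without EAE replicate 2 these counts were 0, 2 and 1, and without OVA replicate 2 they were likewise 0, 2 and 1 (limma; 4, 6 and 10, and 4, 5 and 10, at an unadjusted p under 0.05). Without EAE replicate 1 they were 1, 2 and 5, without EAE replicate 3 they were 3, 3 and 4, and without OVA replicate 1 they were 1, 3 and 4. The number of all tested genes called higher moved as well, from 312 with all samples to 850 without OVA replicate 3. It was 84, 24 and 286 without EAE replicates 1, 2 and 3 in turn, and 99 and 30 without OVA replicates 1 and 2. No marker of these lists was at 0 in every sample. All 10 endothelial markers had a negative difference, with 0 called (limma; 6 lower at an unadjusted p under 0.05), and of 9 astrocyte markers 5 were called lower (Slc4a4, Slc1a2, Gja1, Slc1a3 and Aqp4) and 1, Gfap, higher. The 5 astrocyte markers called lower were 2, 0 and 3 without EAE replicates 1, 2 and 3 in turn, and 2, 1 and 5 without OVA replicates 1, 2 and 3 (limma; 7 lower at an unadjusted p under 0.05 in each of these fits). Of all tested genes 121 were called lower with all samples, and 18, 1 and 45, then 33, 7 and 346 in the same order of fits. Pericyte, neuron and ependymal markers gave 0 calls among 6, 8 and 5. At an unadjusted p under 0.05 (limma) these lists held 2 lower, 1 higher and 3 higher, in that order. Of 6 markers of oligodendrocyte precursors 1, Ptprz1, was called lower, while 4 of the 6 had a positive difference. At the unadjusted threshold 3 of the 6 were higher (Lhfpl3, Pdgfra and Vcan) and 1 lower. Of the 6 precursor markers 1 was called lower without OVA replicate 3 and 0 with any other sample left out, and of the 11 myeloid markers 1 without EAE replicate 3 or OVA replicate 3 and 0 otherwise. Of the 5 ependymal markers 4 were called higher without OVA replicate 3. Leukocytes, endothelial cells and glia can all express the class I genes, and the part of these cells in the differences was not tested. In such bulk samples a change in the number of cells and a change in RNA per cell cannot be told apart.

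Nlrc5 (ENSMUSG00000074151.13, GRCm38 chromosome 8, 94434356 to 94527272, plus strand) is a nucleotide-binding NLR protein that enters the nucleus and activates class I promoters through a complex of DNA-binding factors. Its rlog values were 12.12, 12 and 11.43 in EAE replicates 1 to 3 and 9.82, 9.43 and 10.20 in OVA replicates 1 to 3. The groups were separated by more than 1 log2 unit, with EAE replicate 3 the lowest of its group and OVA replicate 3 the highest of its own. The difference was 2.03 ± 0.23 (SE; 95% confidence interval 1.49 to 2.57; limma adjusted p = 0.0102), which was larger than that of 99.8% of tested genes. Nlrc5 missed the threshold without EAE replicate 2 (adjusted p = 0.0608) or without OVA replicate 2 (0.0541), and passed it with each other sample left out. Over 13 alternatives its difference ran from 1.84 to 2.42 and its adjusted p from 6.34e-05 to 0.0608. An antisense gene, 9330175E14Rik, shares 78 exonic bases with Nlrc5 and rose by 1.37 (limma adjusted p = 0.0149). The library kit keeps strand. Whether strand was used in counting is not stated, and for antisense pairs reads of the partners may have been mixed.

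B2m (ENSMUSG00000060802.8, chromosome 2, 122147686 to 122153083, plus strand) encodes beta-2 microglobulin, the light chain that every classical class I molecule needs to reach the surface. It stood at 14.85, 14.67 and 14.50 in EAE and at 13.06, 13.17 and 13.80 in OVA, replicates 1 to 3 in each. All 3 EAE values were above all 3 OVA values, and OVA replicate 3 came nearest to EAE. B2m rose by 1.33 ± 0.20 (SE; 95% confidence interval 0.87 to 1.80; limma adjusted p = 0.0215). Leaving out replicate 1 or 2 of EAE (adjusted p = 0.0907 and 0.104), or replicate 1 or 2 of OVA (0.0695 and 0.0996), ended the call, and over 13 alternatives the difference ran from 1.19 to 1.56 (adjusted p from 8.27e-05 to 0.104). The stretch upstream of B2m is shown because it is the only promoter among the 7 found for these genes that holds the interferon-stimulated response element searched here, next to the boxes through which class I genes are known to be activated. It covers chr2:122147437-122147685 (GRCm38, plus strand, RefSeq), ending where the annotated exon begins. Capitals mark, in order, the interferon-stimulated response element (GAAA repeated after a spacer of 2 bases), the core TGACG of a cyclic AMP response element, and a CCAAT box on the opposite strand, which reads ATTGG.
B2m: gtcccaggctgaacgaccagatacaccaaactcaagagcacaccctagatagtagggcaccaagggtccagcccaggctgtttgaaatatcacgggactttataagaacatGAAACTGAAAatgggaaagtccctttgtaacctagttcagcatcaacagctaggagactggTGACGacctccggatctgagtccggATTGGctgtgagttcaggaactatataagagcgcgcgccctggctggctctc

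RefSeq promoters were found for B2m, Tap1, Tapbp, Erap1, Calr, Pdia3 and Canx, and not for Nlrc5, Tap2 and Tapbpl. Motifs were searched on both strands of the 250 bases before each start. Positions are counted from the RefSeq start. The stretch of B2m printed above stops at the annotated exon and holds 249 of these bases. The interferon-stimulated response element was present in B2m alone of the 7, 139 to 130 bases before the start, and in 2.98% of 32851 promoters of the same length. TGACG was present in B2m, Tap1, Pdia3 and Canx, and in 17.8% of all promoters. In B2m it lay 78 to 74 and in Tap1 86 to 82 bases before the start. CCAAT was present in all of the 7 but Erap1, and in 33.8% of all promoters. The interferon gamma activated site (TTC and GAA with 3 bases between them) was in none of the 7 and in 7.02% of all. A match describes the letters and not a site of binding.

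Tap1 (ENSMUSG00000037321.17, chromosome 17, 34187553 to 34197225, plus strand) and Tap2 (ENSMUSG00000024339.12, chromosome 17, 34203527 to 34216321, plus strand) encode the subunits that pair to form the peptide transporter. Tap1 stood at 12.06, 11.95 and 11.33 in EAE and at 9.89, 9.60 and 10.39 in OVA, replicates 1 to 3 in each. Tap2 stood at 11.67, 11.63 and 11.22 in EAE and at 10.69, 10.48 and 11.05 in OVA. Neither gene had overlapping groups, but for Tap2 only a narrow margin separated EAE replicate 3 from OVA replicate 3. Tap1 rose by 1.82 ± 0.24 (SE; 95% confidence interval 1.25 to 2.39; limma adjusted p = 0.0161). The difference of Tap2 was 0.77 ± 0.17 (0.37 to 1.17; limma adjusted p = 0.0704), and it passed the threshold when each sample was centred on its median (0.0498) and without OVA replicate 3 (0.0138). Tap1 missed the threshold when replicate 1 or 2 of EAE was left out (adjusted p = 0.0631 and 0.0833), and likewise with replicate 1 or 2 of OVA (0.0628 and 0.0725). Over 13 alternatives the adjusted p ran from 0.000113 to 0.0833 for Tap1 and from 0.00051 to 0.251 for Tap2. Tap1 shares 212 exonic bases with Psmb9 on the opposite strand, a gene that itself rose by 1.16 (limma adjusted p = 0.0413). Tap2 shares 533 exonic bases with Gm15821 on the opposite strand, which stood at 3.79 in EAE and 3.64 in OVA.

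The transporter needs both subunits, so their levels were also set against each other within each sample. Tap1 minus Tap2 was 0.39, 0.32 and 0.11 in EAE replicates 1 to 3 and -0.80, -0.89 and -0.65 in OVA replicates 1 to 3, on the rlog scale. These values are not set per length, and Tap1 has the longer merged exons of all annotated transcripts (5476 against 3781 bases). Per kilobase of these exons the gap was -0.14, -0.22 and -0.42 in EAE and -1.33, -1.42 and -1.19 in OVA. Set so, Tap1 lay below Tap2 in all 6 samples and came nearer to it in EAE. Which gene is higher in EAE thus depends on the length used, and the lengths of the transcripts present were not measured. The gap differed by 1.05 between the groups (0.27 ± 0.14 in EAE and -0.78 ± 0.12 in OVA, SD, n = 3 in each; exact two-sided permutation p = 0.1, the smallest that 3 samples against 3 can give, and 0.167 adjusted over 5 gaps). Such a gap does not move when a sample is rescaled by a constant. Tap1 minus Calr, which sets the transporter against a general chaperone, was also higher in every EAE sample, at -1.97, -1.90 and -2.54 in EAE and -3.66, -4.44 and -3.24 in OVA (difference 1.65, exact permutation p = 0.1, adjusted 0.167). B2m minus Tapbp differed by 0.40 (2.16 ± 0.17 in EAE and 1.76 ± 0.14 in OVA, SD, n = 3; exact permutation p = 0.1, adjusted 0.167). The gaps Tapbp minus Tapbpl and Calr minus Canx differed by 0.11 and 0.16 with overlapping groups (exact permutation p = 0.5 and 0.3, adjusted 0.5 and 0.375, n = 3).

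**Figure D2:**
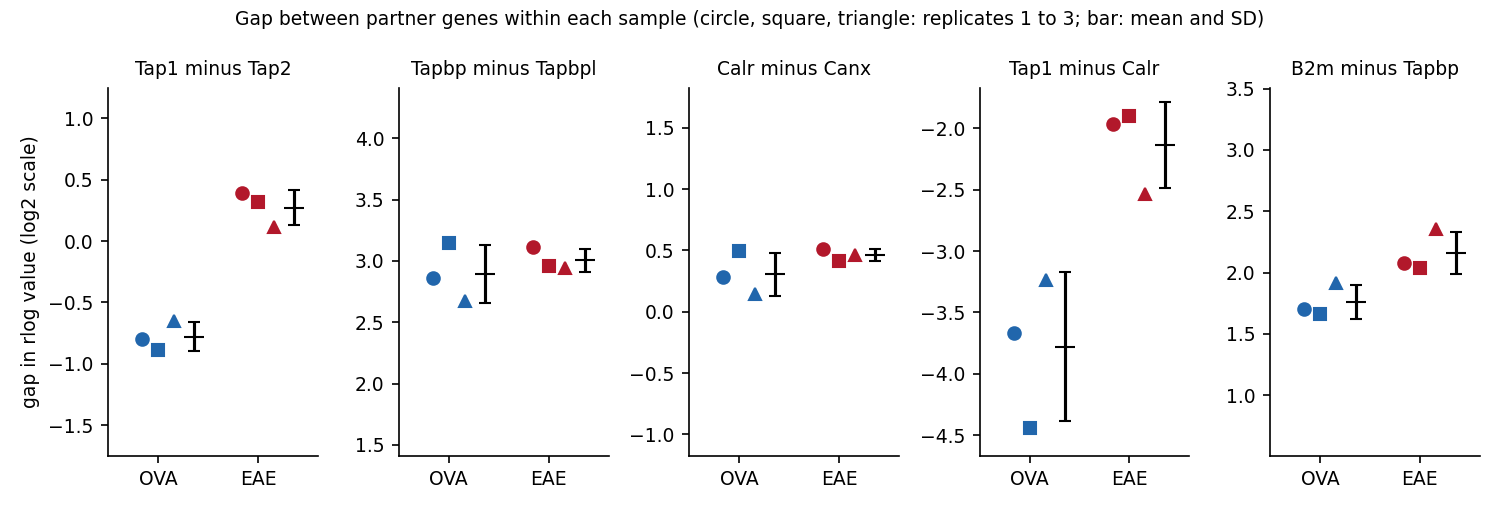
The gap in rlog value (log2 scale) between the members of each of 5 pairs within each sample, with OVA in blue, EAE in red, a marker for each replicate and bars for the mean and SD of 3 samples. Tap1 minus Tap2 lies between -0.89 and -0.65 in OVA and between 0.11 and 0.39 in EAE, whereas Tapbp minus Tapbpl overlaps between the groups.

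Erap1 (ENSMUSG00000021583.7, chromosome 13, 74639568 to 74693201, plus strand) is the ER aminopeptidase that trims peptides to the length class I molecules bind. Its values were 10.81, 10.83 and 10.52 in EAE and 10.21, 10.30 and 10.78 in OVA, replicates 1 to 3 in each. The groups overlapped, since OVA replicate 3 lay above EAE replicate 3. The difference was 0.29 ± 0.16 (SE; 95% confidence interval -0.08 to 0.66; limma adjusted p = 0.419), and it passed the threshold without OVA replicate 3 (0.47, adjusted p = 0.044; 0.00726 to 0.772 over 13 alternatives). Erap1 shares 834 exonic bases with Cast on the opposite strand, which stood at 10.51 in EAE and 10.66 in OVA on average, close to the level of Erap1 itself. Calls covered 1.72% of all tested genes on the higher side and 0.666% on the lower (limma; 9.17% and 7.15% at an unadjusted p under 0.05). The cytosolic and endosomal peptidases that cut peptides outside the ER showed 0 calls among 9 (limma; 1 higher and 0 lower at an unadjusted p under 0.05). Their median difference was 0.03, and they ranged from -0.13 to 0.26. The smallest p values were those of leucine aminopeptidase Lap3 and thimet oligopeptidase Thop1, with differences of 0.26 and 0.17 (limma adjusted p = 0.296 and 0.454).

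Tapbp (ENSMUSG00000024308.15, chromosome 17, 33915899 to 33929292, plus strand) encodes tapasin, which tethers the empty class I molecule to the transporter and favours tightly binding peptides. It stood at 12.77, 12.63 and 12.14 in EAE and at 11.36, 11.51 and 11.88 in OVA, with no overlap. The difference of 0.93 ± 0.19 (SE; 95% confidence interval 0.49 to 1.37) had a limma adjusted p of 0.0533. It passed the threshold after median centring (0.0384), without EAE replicate 3 (0.0306) and without OVA replicate 3 (0.0143), and its adjusted p ran from 0.000758 to 0.196 over 13 alternatives. Tapbp shares 149 exonic bases with Zbtb22 on the same strand, whose difference was 0.23 (adjusted p = 0.457), and 904 with Gm19412 on the opposite strand, which stood lower, at 6.06 in EAE and 5.94 in OVA. Tapbpl (ENSMUSG00000038213.7, chromosome 6, 125223933 to 125231860, minus strand) encodes the tapasin-related editor TAPBPR, which acts outside the transporter complex. It stood at 9.66, 9.67 and 9.20 in EAE and at 8.50, 8.36 and 9.21 in OVA. The groups overlapped narrowly, with OVA replicate 3 just above EAE replicate 3. The difference was 0.82 ± 0.23 (0.28 to 1.36; limma adjusted p = 0.131), and without OVA replicate 3 it was 1.08 (adjusted p = 0.00987; 0.000684 to 0.403 over 13 alternatives).

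Calr (ENSMUSG00000003814.8, chromosome 8, 84841850 to 84846934, minus strand), Canx (ENSMUSG00000020368.15, chromosome 11, 50293961 to 50325673, minus strand) and Pdia3 (ENSMUSG00000027248.13, chromosome 2, 121413775 to 121438687, plus strand) serve all glycoproteins that fold in the ER. Calr and Canx are sugar-binding chaperones, soluble and membrane-bound, and Pdia3 is the thiol oxidoreductase also called ERp57. Calr stood at 14.03, 13.84 and 13.87 in EAE and at 13.56, 14.04 and 13.63 in OVA, so that OVA replicate 2 was the highest of all 6. Pdia3 stood at 13.57, 13.45 and 13.42 in EAE and at 13.23, 13.66 and 13.49 in OVA. Canx stood at 13.52, 13.43 and 13.40 in EAE and at 13.28, 13.54 and 13.49 in OVA. All 3 genes had overlapping groups, with OVA replicate 1 the lowest sample and OVA replicate 2 the highest in each.

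The differences were 0.17 ± 0.14 for Calr, 0.02 ± 0.12 for Pdia3 and 0.01 ± 0.10 for Canx (SE; limma adjusted p = 0.59, 0.951 and 0.96). Their 95% confidence intervals ran from -0.15 to 0.50, from -0.26 to 0.31 and from -0.21 to 0.24. The upper ends lie below the lower ends of the intervals of Nlrc5 (1.49), Tap1 (1.25) and B2m (0.87). Pdia3 and B2m lie on the same chromosome with 708999 bases between them. The stretches upstream of Calr and Canx are shown because they alone among the 7 promoters hold the ER stress response element, which is CCAAT and CCACG with 9 bases between them. That motif was present in 0.113% of all promoters, and it contains a CCAAT box by its own letters. Capitals mark it. In Calr it reads on the strand opposite to the one printed, 162 to 144 bases before the RefSeq start. In Canx it reads on the printed strand, 145 to 127 bases before the RefSeq start. The stretches cover chr8:84846935-84847181 and chr11:50325674-50325923 (GRCm38, read 5′ to 3′ on the minus strand, RefSeq), and end before the annotated exon. That of Calr holds 247 of the 250 bases before the RefSeq start, and that of Canx holds all 250.
Calr: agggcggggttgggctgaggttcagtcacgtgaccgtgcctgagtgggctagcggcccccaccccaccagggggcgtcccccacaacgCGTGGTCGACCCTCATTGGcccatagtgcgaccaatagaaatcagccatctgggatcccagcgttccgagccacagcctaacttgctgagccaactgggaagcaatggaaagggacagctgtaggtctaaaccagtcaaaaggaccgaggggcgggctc
Canx: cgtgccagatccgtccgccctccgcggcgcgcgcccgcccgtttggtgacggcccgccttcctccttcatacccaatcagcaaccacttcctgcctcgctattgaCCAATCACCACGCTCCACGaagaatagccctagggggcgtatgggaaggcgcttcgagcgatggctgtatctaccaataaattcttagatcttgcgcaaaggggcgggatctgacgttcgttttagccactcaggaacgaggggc

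Other folding genes of the ER gave 0 calls among 16 (limma; 1 higher and 1 lower at an unadjusted p under 0.05), at a median of 0.11 and between -0.25 and 0.20. Uggt2, a sensor of misfolded glycoproteins, and Edem1, which directs them to degradation, had the smallest p values, with differences of -0.25 and 0.19 (limma adjusted p = 0.273 and 0.227). Of 14 genes of the unfolded protein response, 0 were called (2 higher and 2 lower at an unadjusted p under 0.05), at a median of 0.04. The sensor Ern1 differed by -0.18 and the co-chaperone Dnajb9 by -0.25 (limma adjusted p = 0.296 and 0.275). The translocon, peptide export and vesicle exit gave 0 calls among 10 (1 higher at an unadjusted p under 0.05), at a median of -0.03, with Sec61b at 0.31 and Sec63 at -0.13 (limma adjusted p = 0.216 and 0.476). Over all tested genes, 1.72% were called higher and 0.666% lower (limma; 9.17% and 7.15% at an unadjusted p under 0.05).

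**Figure D3:**
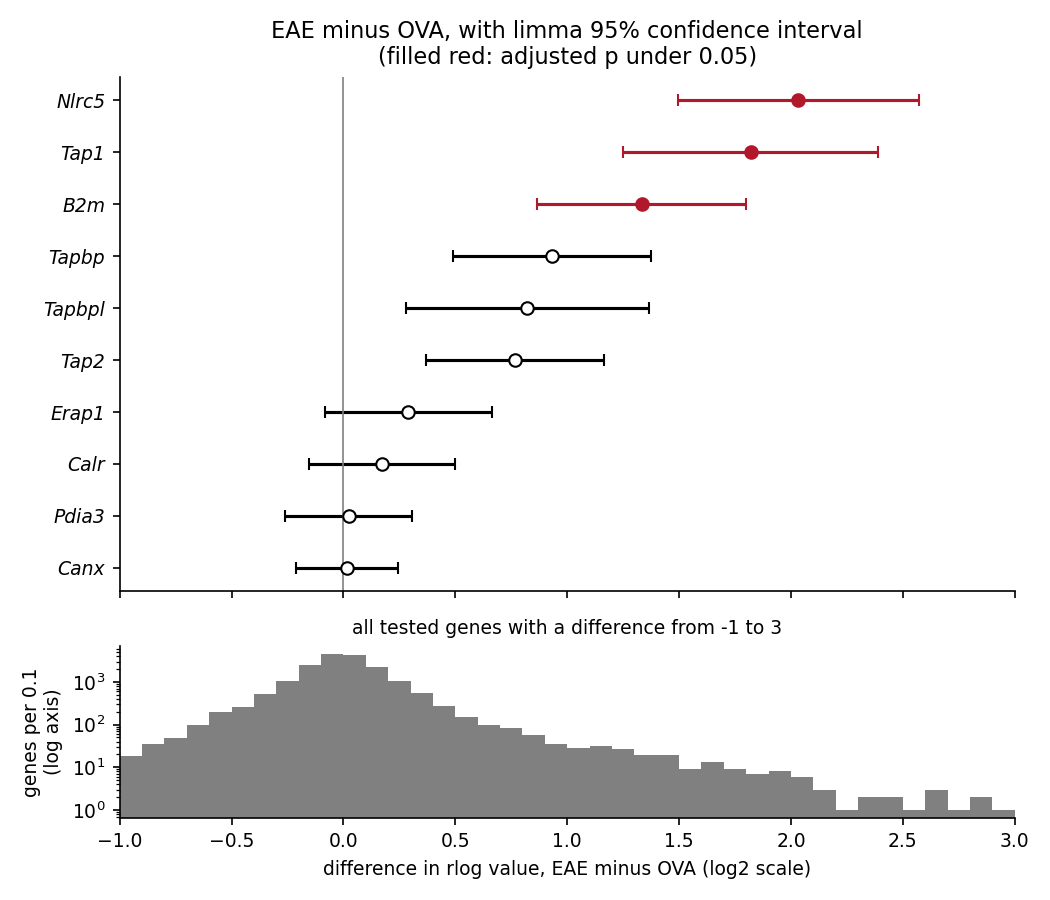
Upper panel: the difference in rlog value (log2 scale), EAE minus OVA, of each of the 10 genes with its limma 95% confidence interval, filled red where the adjusted p was under 0.05. Lower panel: the number of tested genes per 0.1 of difference, on a log axis and drawn from -1 to 3. Nlrc5, Tap1 and B2m stand at 2.03, 1.82 and 1.33, and the intervals of Erap1, Calr, Pdia3 and Canx cross 0.

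Heavy chains and the proteasome stand on either side of peptide loading. Among all tested genes, 1.72% were called higher and 0.666% lower, and in 12.1% every EAE sample lay above every OVA sample. That order held for 9 of 14 tested class I heavy chain and related genes. Of these 14, at a median difference of 0.73, 4 were called higher and 0 lower. They were H2-Q7 (3.17-fold, limma adjusted p = 0.0118), H2-T23 (2.89-fold, 0.0228), H2-D1 (2.53-fold, 0.0234) and H2-K1 (2.36-fold, 0.0228), the last named after its values were seen. H2-K1 and H2-D1, the classical heavy chains, and H2-Q7 resemble other class I genes in sequence. Reads may be split between such genes, which was not measured. H2-K1 stood at 14.53, 14.32 and 14.09 in EAE and at 12.98, 12.79 and 13.46 in OVA, with no overlap. Of 9 proteasome subunits 2 were called, Psmb8 (2.77-fold, limma adjusted p = 0.0244) and Psmb9 (2.23-fold, 0.0413), catalytic subunits of the immunoproteasome, and the median was 0.72. Without EAE replicates 1, 2 and 3 in turn, 0, 0 and 5 heavy chains and 0, 0 and 3 subunits were called. Without OVA replicates 1, 2 and 3 in turn, 1, 0 and 8 heavy chains and 0, 0 and 5 subunits were called (limma; at least 8 heavy chains and 6 subunits higher at an unadjusted p under 0.05 in each fit). In the same order of fits 84, 24 and 286, then 99, 30 and 850 of all tested genes were called higher. With all samples 9.17% of all tested genes were higher at an unadjusted p under 0.05 (limma).

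Nlrc5 works with a constitutive complex on the promoter and is itself induced through interferon signalling. Irf1, an interferon-induced transcription factor, rose by 2.46-fold (limma adjusted p = 0.0407). Irf1 stood at 11.90, 11.93 and 11.13 in EAE and at 10.19, 10.14 and 10.73 in OVA, again with replicate 3 the lowest of EAE and the highest of OVA. Its adjusted p was 0.16 and 0.157 without EAE replicates 1 and 2, 0.115 and 0.158 without OVA replicates 1 and 2, and 0.0149 and 0.0119 without replicate 3 of EAE and of OVA. The DNA-binding partners of Nlrc5, named after their values were seen, were not called. Rfx5 differed by -0.10, Rfxap by 0.06, Rfxank by -0.13 and Creb1 by -0.18 (limma adjusted p = 0.755, 0.806, 0.619 and 0.262). Atf1 differed by -0.001, Nfya by -0.03, Nfyb by -0.06 and Nfyc by -0.15 (limma adjusted p = 0.996, 0.841, 0.709 and 0.395). For Creb1 (limma unadjusted p = 0.0357) and Nfyc (0.0935) every EAE sample lay below every OVA sample, as for 10.8% of all tested genes.

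**Figure D4:**
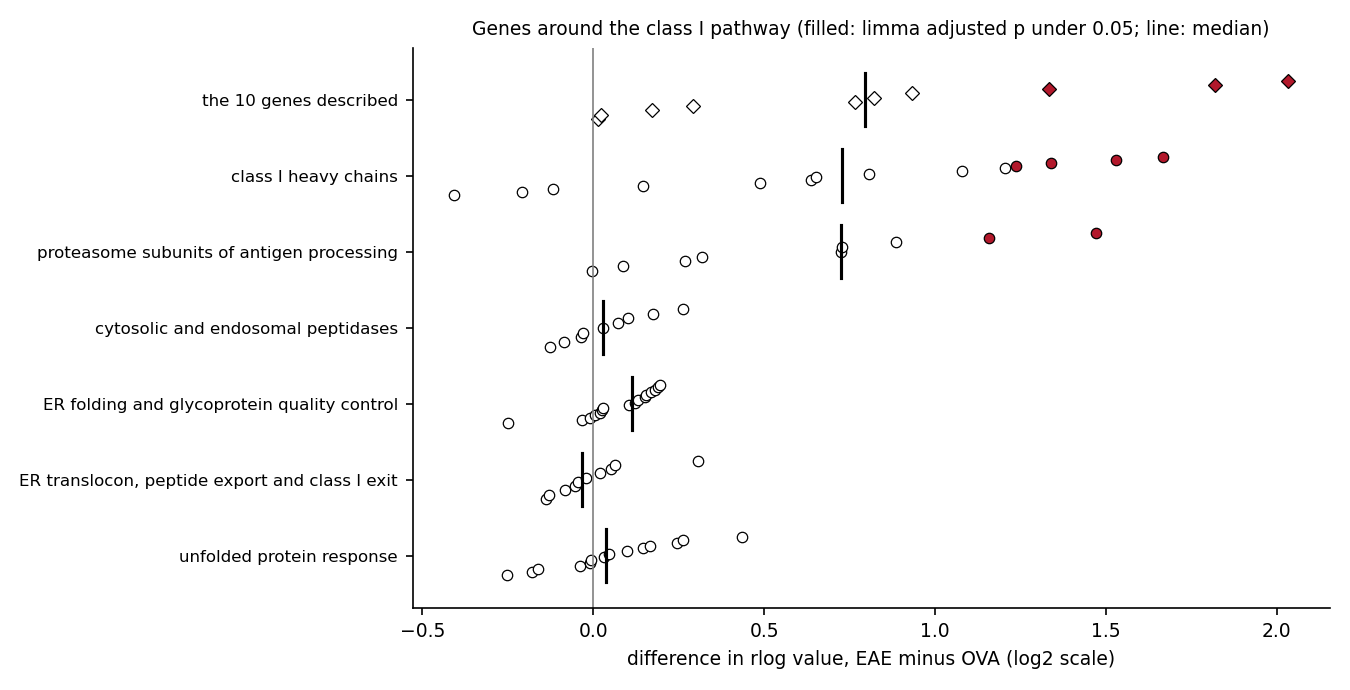
The difference in rlog value (log2 scale), EAE minus OVA, of every tested gene in 6 lists around the class I pathway, with the 10 genes described as diamonds. Filled symbols had a limma adjusted p under 0.05, and vertical lines are medians. Calls are found among heavy chains and proteasome subunits, and the lists of peptidases, ER folding, translocon and unfolded protein response hold none.

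Within the groups, many of the 10 genes shared an order of samples. OVA replicate 3 was the highest OVA sample for all of the 7 genes other than Calr, Canx and Pdia3, by a median of 0.58 over the mean of the other OVA samples, where 40.2% of all tested genes had that order. EAE replicate 3 was the lowest EAE sample for the same 7, at a median of -0.46 from the mean of the others, where 34.2% of all tested genes had that order. It was also the lowest EAE sample for Pdia3 and Canx, thus for 9 of the 10 genes. Over the 6 samples the genes most like Nlrc5 in Pearson correlation, among 15215 with a name other than a predicted model, were Tgif1 (r = 0.999), Tlr2 (0.998) and Tap1 (0.998). Of the other genes, B2m ranked 135th (r = 0.975), Tap2 149th (0.973), Tapbp 239th (0.961), Tapbpl 540th (0.929) and Erap1 1827th (0.751). Calr, Canx and Pdia3 stood at 0.355, 0.104 and 0.0584. Most like Calr were Bloc1s1 (0.993), Aven (0.983) and Jagn1 (0.980). These r values describe 6 samples in 2 groups, and the difference between the groups enters them.

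**Figure D5:**
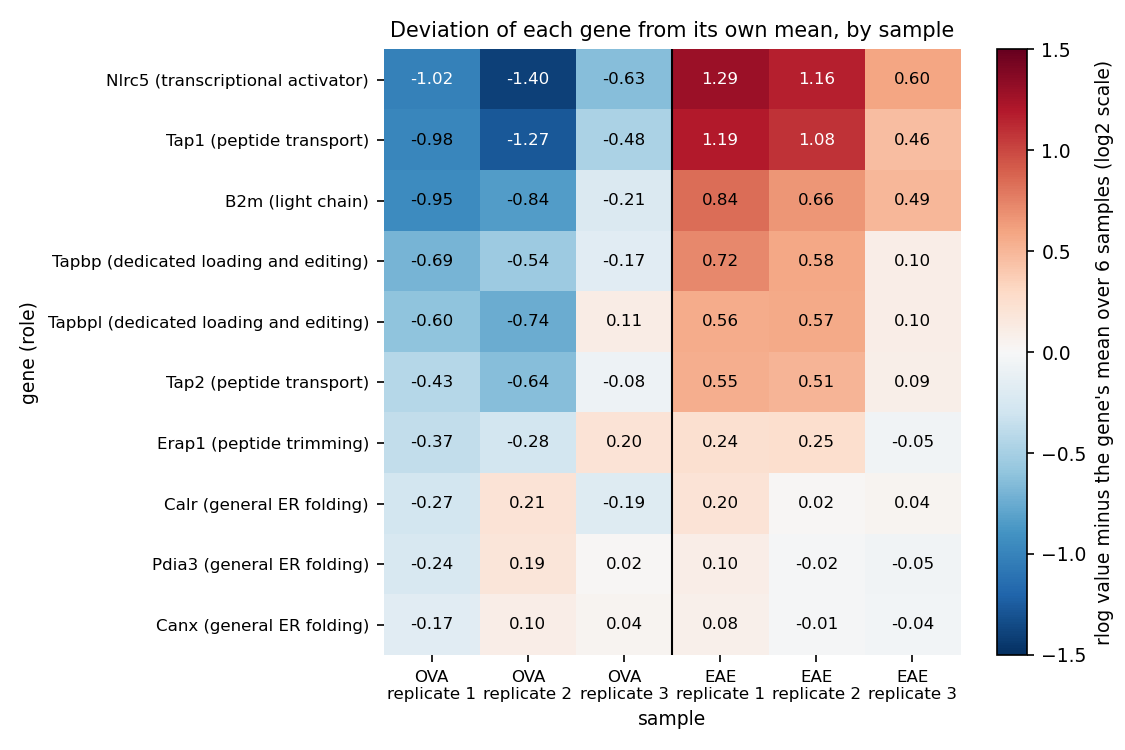
The deviation of each gene's rlog value from its own mean over 6 samples (log2 scale, red above and blue below), with samples in columns and genes in rows ordered by their difference. In the upper 7 rows OVA replicate 3 is the highest OVA sample and EAE replicate 3 the lowest EAE sample, whereas in Calr, Pdia3 and Canx OVA replicate 2 is the highest of the 6.

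Leaving out single samples changed how many of the 10 genes were called. The 3 calls became 1 (Nlrc5) without EAE replicate 1 and 1 (Nlrc5) without OVA replicate 1. They became 0 without EAE replicate 2 or OVA replicate 2, by limma, with 6 and 7 genes higher and 0 lower at an unadjusted p under 0.05. Without EAE replicate 3 there were 4, with Tapbp added. A group left with 2 samples is assumed to vary like the other. Without OVA replicate 3 there were 7, that is all but Calr, Pdia3 and Canx. The 7 genes kept a positive difference in each of these fits.

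Set per length, the order of the 10 genes also differed between the groups. The level used is the rlog value minus log2 of the kilobases in the merged exons of all annotated transcripts. In OVA the order was B2m (13.56 ± 0.40), Calr (12.22 ± 0.26), Pdia3 (11.81 ± 0.22), Canx (11.20 ± 0.14), Tapbp (9.72 ± 0.27), Tap2 (8.82 ± 0.28), Erap1 (7.57 ± 0.31), Tap1 (7.51 ± 0.40), Tapbpl (7.45 ± 0.45) and Nlrc5 (6.73 ± 0.38; SD, n = 3 for each). In EAE the first 6 places were the same, followed by Tap1 (9.33 ± 0.39), Nlrc5 (8.76 ± 0.37), Tapbpl (8.28 ± 0.27) and Erap1 (7.86 ± 0.17). Erap1, Tap1 and Tapbpl overlapped with their neighbours in OVA, and Tap2, Tap1, Nlrc5 and Tapbpl did so in EAE. Nlrc5 was thus the lowest of the 10 per length in OVA and the 8th of 10 in EAE. The folding factors Calr, Pdia3 and Canx stood above Tapbp and both transporter subunits in each group.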

How the data were processed

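Stranded mRNA libraries of 3 EAE and 3 OVA samples were sequenced, per the labels' protocols. DESeq2 1.24.0, Subread 1.6.1, STAR 2.6.1c, cutadapt 1.18 and bcl2fastq 2.17 are named in the submitters' processing notes, with build GRCm38 and without their roles. The deposited values are log2 values, the authors' rlog of scaled counts. Their depth is unknown, so no counting interval is given. The rlog settings and the annotation release are not given in the sources used here.

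Of 55298 identifiers, 55117 (99.7%) matched GENCODE M21 without version numbers, and positions are 1-based. A repeated symbol stands for the identifier with the highest mean. Genes with a mean rlog of at least 3 (18161) were fitted in limma 3.58.1 (R 4.3.3) with an intensity trend and without covariates. Gaps between genes were tested by exact permutation (scipy 1.17.1). All 6 value columns were matched to a sample, and 0 were left over. Promoters came from RefSeq on GRCm38.p6, and exact matches were searched in the 250 bases before the start, without the 50 after it. The limma test was checked on simulated data for EAE against OVA with 18161 genes, where it recovered 34% of 50 genes changed by 0.5 and 90% of 50 changed by 1. It recovered 100% of those changed by 2 or 3 and made 7 false calls. Whether these figures hold for the real samples, of which OVA replicate 3 stood apart, was not tested. In the real data 312 genes were called higher with all 6 samples, and between 24 and 850 with 1 sample left out. The genes and lists were chosen with earlier results of these data known. All 10 genes are named. From each list around the pathway the rule was up to 3 called genes of largest difference with 1 of opposite sign, or the 2 of smallest p without a call. Of the cell marker lists the called genes are named, except those of T and NK cells. The replicates come from separate pools or mice. A further list of genes was fitted and is not reported here. The alternatives were other filters, scalings, moderation and weights, and leaving out each sample.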

Additional observations from a re-analysis of the deposited data

How the results depend on the processing

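No paired analysis was possible because the replicate numbers follow the order of the samples and pair nothing. Of 130 differences of the 10 genes under the alternatives, 98 kept direction and side of the threshold, 10 kept the direction but missed it, 11 newly passed it and 11 changed sign. The cause of these changes was not tested. Leaving out 1 sample at a time gave 24 to 850 genes higher, 1 to 346 lower and 0 to 7 of the 10 genes called. Array quality weights, whose fit did not converge and gave OVA replicate 2 a weight of 8.85, gave 2858 genes higher, 2233 lower and 7 of the 10. Median centring gave 5 of the 10, with Tap2 and Tapbp added. No other filter, scaling or moderation changed a call among the 10 genes. The changes of sign were all of genes near 0. Calr was at -0.103 with array weights. Pdia3 was at -0.00048 with median centring, -0.0047 with quantile normalisation, -0.159 with array weights, and between -0.0926 and 0.122 with 1 sample left out. Canx was at -0.0082, -0.019 and -0.0831 in the same order, and between -0.0648 and 0.0687 with 1 sample left out. All 5 gaps kept their sign with 1 sample left out, but Tapbp minus Tapbpl ran from 0.00218 (without OVA replicate 3) to 0.238 (without OVA replicate 2) and Calr minus Canx from 0.0766 to 0.25 (without the same samples). The median of all tested genes moved from -0.002 to -0.026 with median centring and to -0.015 with quantile normalisation.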

Other observations

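Tap1 and Tap2 lie in the class II region of the MHC, interleaved with the immunoproteasome genes. Psmb9 lies head to head with Tap1, Psmb8 starts 496 bases after Tap1 ends, and Tap2 starts 2073 bases after Psmb8 ends. Of 10 tested genes that lie within 60000 bases of this stretch or in it, 6 were called higher and 0 lower. Of all tested genes 1.72% were called higher and 0.666% lower. In 9 of the 10 every EAE sample lay above every OVA sample, as in 12.1% of all tested genes. These counts include Tap1, Tap2, Psmb8 and Psmb9, whose differences were already given above, so they are not a separate result about the neighbours. Among the neighbours, H2-DMa, H2-DMb1 and H2-Ab1 were called, and H2-DMb2, Gm15821 and H2-Ob were not. The called genes, in order along chromosome 17, were the class II loading factors H2-DMa (2.56-fold, limma adjusted p = 0.0113) and H2-DMb1 (1.95-fold, 0.0193), then Psmb9, Tap1, Psmb8 and the class II beta chain H2-Ab1 (3.36-fold, 0.00856). H2-Ob, the beta chain of the class II inhibitor H2-O and known from B cells, differed by -0.17 (limma adjusted p = 0.643), and H2-DMb2 by 0.27 (0.249). For H2-DMa, H2-DMb1 and H2-Ab1 no fit with a sample left out is given here. Among all tested genes 312 were called higher with all samples, 24 without EAE replicate 2 and 30 without OVA replicate 2. Neighbouring genes are not independent of each other, and the window was set with the values known.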
